A study of Mus musculus with 12 samples.

Results

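The cornified envelope genes are 50 of the 53801 genes in the count tables of this study of mouse cutaneous squamous cell carcinoma. They were chosen by name: every gene whose symbol starts with Sprr or Lce, together with Ivl, Lor, Flg, Flg2, Hrnr, Rptn, Crnn, Tchh, Krtdap, Sbsn, Dmkn and Cnfn. RNA-seq libraries were made from cells sorted out of carcinomas of FVB mice, an inbred strain, and compared in 2 separate sets of 6. In the tumor set, basal carcinoma cells that carried a Rosa-YFP mark and the integrins CD49f and CD29 on their surface were split by an mScarlet reporter, which marks cells responding to TGF-beta, into 3 positive and 3 negative libraries. In the macrophage set, cells sorted for CD45 and F4/80 were split into 3 libraries with and 3 without FceRIa, the receptor chain on the cell surface that binds IgE. Each set had replicate numbers 1 to 3 in both groups. Not given in the sources used here are the Cre or oncogene behind the tumors, the ages of the mice and the number of animals per library.

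The cornified envelope is the tough protein shell that replaces the plasma membrane when a keratinocyte dies at the skin surface. Involucrin (Ivl) is laid down early as a scaffold, small proline-rich (Sprr) proteins and loricrin (Lor) are then cross-linked to it by transglutaminases, and late cornified envelope (Lce) proteins are added near the end. The S100-fused type proteins (Flg, Flg2, Hrnr, Rptn, Crnn, Tchh) bind keratin filaments or are cut into smaller pieces in the outer layers. Sprr genes are low in resting interfollicular epidermis and are known to be switched on in wounds and tumors, whereas Lor and Flg are abundant in the granular layer of normal epidermis. Basal cells, the class sorted here, normally express little of the whole set.

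There were 17 Sprr genes, 15 Lce1 and Lce6 genes, 6 Lce3 genes, 6 S100-fused type genes, the precursors Ivl and Lor, and 4 others (Cnfn, Sbsn, Dmkn and Krtdap). In GENCODE M21 on GRCm38, 46 of them lie on chromosome 3 between 92080271 and 93449077, a span of 1.37 Mb called the epidermal differentiation complex. The other 4 lie on chromosome 7, where Sbsn, Dmkn and Krtdap occupy 39.6 kb. The annotation gives 48 as protein coding, Sprr2g as a polymorphic pseudogene and Sprr2c-ps as a processed pseudogene.

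RefSeq promoter windows on GRCm38.p6 (250 bases before to 50 after the start) existed for 46 of the 50 genes, not for Lce1f, Sprr2c-ps, Sprr2g and Sprr2j-ps. Below are the 210 bases before the RefSeq start of 8 genes, 5' to 3' on the gene's own strand. They were picked to show the 2 most abundant Sprr genes, 2 Sprr2 genes, the scaffold Ivl, and Lce3c, set beside Lor and Krtdap, which unlike the other 6 were not called in the paired fit of the tumor cells described below. Capitals mark matches to the AP-1 letters TGANTCA (N is any base) and to the TATA box letters TATAAA.
Sprr1a, chr3:92485882-92486091, minus strand: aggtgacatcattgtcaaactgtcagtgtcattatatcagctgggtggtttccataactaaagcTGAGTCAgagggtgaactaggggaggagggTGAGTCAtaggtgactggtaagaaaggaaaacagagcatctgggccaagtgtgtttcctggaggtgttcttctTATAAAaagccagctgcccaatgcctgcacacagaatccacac
Sprr1b, chr3:92438780-92438989, minus strand: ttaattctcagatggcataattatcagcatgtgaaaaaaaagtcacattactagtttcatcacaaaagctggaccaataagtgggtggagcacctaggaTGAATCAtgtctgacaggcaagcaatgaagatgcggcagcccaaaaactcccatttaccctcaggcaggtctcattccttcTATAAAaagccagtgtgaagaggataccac
Sprr2d, chr3:92338930-92339139, plus strand: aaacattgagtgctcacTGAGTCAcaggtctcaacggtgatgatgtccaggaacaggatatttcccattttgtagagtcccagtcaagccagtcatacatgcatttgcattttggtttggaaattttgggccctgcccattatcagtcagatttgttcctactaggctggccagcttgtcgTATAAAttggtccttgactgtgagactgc
Sprr2h, chr3:92385475-92385684, plus strand: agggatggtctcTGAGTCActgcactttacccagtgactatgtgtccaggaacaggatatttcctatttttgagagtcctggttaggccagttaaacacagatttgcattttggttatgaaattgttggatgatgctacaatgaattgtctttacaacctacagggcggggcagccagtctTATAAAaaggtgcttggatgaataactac
Ivl, chr3:92573736-92573945, minus strand: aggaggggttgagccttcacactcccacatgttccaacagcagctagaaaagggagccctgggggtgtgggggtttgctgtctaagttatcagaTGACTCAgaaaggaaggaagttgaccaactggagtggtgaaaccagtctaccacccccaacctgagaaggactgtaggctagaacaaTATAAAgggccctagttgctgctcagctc
Lor, chr3:92083143-92083352, minus strand: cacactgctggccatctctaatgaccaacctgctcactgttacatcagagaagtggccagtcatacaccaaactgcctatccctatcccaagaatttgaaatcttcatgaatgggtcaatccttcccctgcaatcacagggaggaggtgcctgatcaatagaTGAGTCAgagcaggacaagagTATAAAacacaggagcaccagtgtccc
Lce3c, chr3:92944276-92944485, plus strand: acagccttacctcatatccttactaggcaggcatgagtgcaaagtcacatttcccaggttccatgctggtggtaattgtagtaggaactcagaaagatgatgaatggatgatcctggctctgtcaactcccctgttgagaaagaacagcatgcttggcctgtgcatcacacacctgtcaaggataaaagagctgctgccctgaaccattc
Krtdap, chr7:30787695-30787904, plus strand: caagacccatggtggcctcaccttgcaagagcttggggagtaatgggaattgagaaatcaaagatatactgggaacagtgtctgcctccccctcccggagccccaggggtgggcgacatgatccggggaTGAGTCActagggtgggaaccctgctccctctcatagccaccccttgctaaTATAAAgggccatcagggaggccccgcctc
Both strands of the 300-base windows were searched. The 46 genes had 48 windows, and a gene was counted once if any of its windows matched. The AP-1 letters were found in 18 of the 46 genes (39.1%), against 7.81% of 32817 single RefSeq windows. The TATA box letters were found in 21 genes (45.7%), against 13.6% of those windows. Sprr2b, Sprr2d, Sprr2e, Sprr2f, Sprr2h, Sprr2i and Sprr2k shared a layout, with an AP-1 match that begins between position -198 and -193 and a TATA box match at -29, counted from the start of transcription. In Ivl and Lor both motifs were present too, with AP-1 at -116 and -48. Among the 24 genes with a window that had enough counts to test in the tumor cells, AP-1 matches stood in 15, and among the 22 without enough counts in 3. Of the 17 that rose in the paired fit, 10 held the AP-1 letters, and of the 7 that were not called, 5 did. Copies within a family can have similar windows (88% of bases were the same in Sprr2d and Sprr2e). These counts are therefore not of independent genes, and a link between AP-1 matches and level was not tested. The other motifs searched were KLF (GGGTGTG) in 3 genes (6.52%, against 7.95% of all windows) and grainyhead (ACCGGT) in 0 (against 2.33%). SMAD (AGAC) was in 43 genes (93.5%, against 88.0%) and ETS (CGGAAG) in 1 (2.17%, against 16.9%). AGAC is short and stands in most windows, and a match is only a match of letters.

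The tumor libraries held 27951632 to 35088897 counts and the macrophage libraries 33704786 to 40041144. Levels are given in CPM, the count scaled to libraries of equal normalized size. A level of 0.0698 to 0.107 CPM equals 3 counts, the limit that a count of 0 allows. Markers of basal keratinocytes summed to 63790 to 75120 CPM in the tumor libraries and those of macrophages to 28.4 to 118 CPM. In the macrophage libraries the macrophage markers summed to 16942 to 31051 CPM and Krt14 ran from 97.2 to 1706 CPM and Krt5 from 54.0 to 714 CPM. The labelled cell types thus matched their markers, and keratin RNA was present in all 6 macrophage libraries.

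Reporter-positive tumor cells had higher levels of most of the envelope genes that could be measured, led by Sprr1a, Sprr1b, the Sprr2 cluster, the Lce3 genes, Cnfn, Sbsn and Ivl. After the filter on low counts 26 of the 50 genes were tested, and a gene that passed because it is high in 1 group had to differ, so the tested genes do not stand for the full set. Their median log2 difference (positive minus negative) was 1.92, against 0.00 over all 13604 genes tested. With edgeR's quasi-likelihood test and no pairing, 0 of the 26 were called at an adjusted p under 0.05 in either direction, where 0.573% of all genes were called higher and 0.235% lower. Their adjusted p-values ran from 0.0527 (Sprr2g) to 0.919 (Sprr2a3), 20 had an unadjusted p under 0.05 and were higher (11.1% of all genes), and DESeq2 called 12 higher (5.2% of all genes). With the replicate number added to the model as a blocking term (the paired fit), 19 of the 26 rose and 0 fell, against 10.7% and 7.34% of all genes. In 19 genes the 3 positive libraries were all above the 3 negative ones and in 0 all below, against 14.6% and 13.6% of all genes. In bulk RNA a larger share of cells that express a gene and more RNA per cell cannot be told apart.

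**Figure D1:**
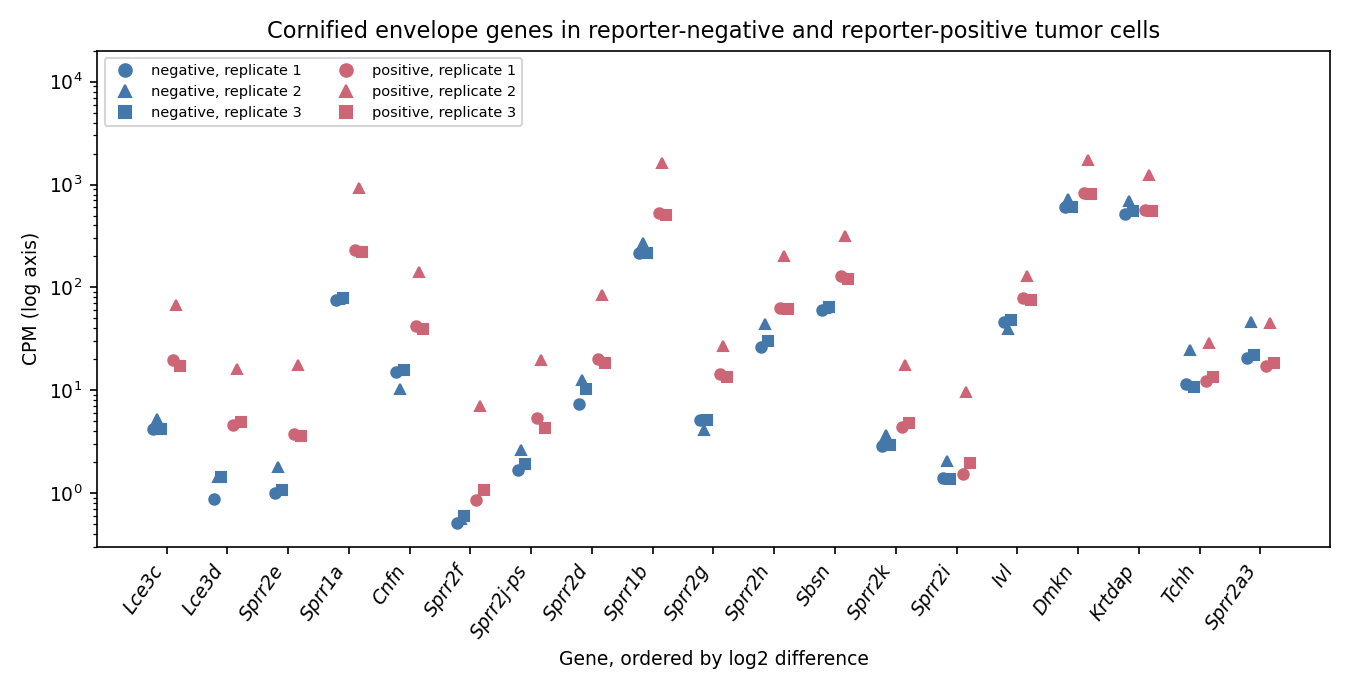
CPM on a log axis in each of the 6 tumor libraries for the 19 tested genes with a mean of at least 1 CPM, ordered by the unpaired log2 difference. Each point is 1 library, with blue for reporter-negative, red for reporter-positive and the shape for the replicate number. Positive replicate 2 is the highest point for all but Sprr2a3, and Sprr1a runs from 76.2 to 79.5 CPM in the negative and from 219 to 936 CPM in the positive libraries.

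The 2 Sprr1 genes encode cross-bridging proteins that are induced in injured and transformed epidermis. Sprr1a (chromosome 3, 92483952 to 92485895) stood at 76.2, 76.8 and 79.5 CPM in negative replicates 1 to 3 and at 233, 936 and 219 CPM in positive replicates 1 to 3. The negative libraries lay within a few CPM of each other, and every positive library was above them. The mean went from 77.5 ± 1.78 to 463 ± 410 CPM (SD, n = 3 each), 5.97-fold, and the log2 difference was 2.58 ± 0.60 (SE) with an adjusted p of 0.094 unpaired. In the paired fit it was 2.21 ± 0.42 with an adjusted p of 0.0199. Sprr1b stood at 216, 269 and 215 CPM in the negative and 526, 1627 and 504 CPM in the positive libraries. The 2 groups did not overlap, and its log2 difference was 1.93 ± 0.48 unpaired (adjusted p 0.11) and 1.70 ± 0.27 paired (adjusted p 0.0125). No 50-base stretch of either transcript occurs in another annotated gene. Sprr3, which lies between them, and Sprr4, next to Ivl, had at most 3 counts in any tumor library.

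The Sprr2 cluster lies just before Sprr1b on the chromosome and encodes further cross-bridging proteins. Sprr2h was its most abundant gene per kilobase, with 26.3, 43.9 and 29.8 CPM in the negative and 62.9, 203 and 61.0 CPM in the positive libraries. Sprr2d had 7.43, 12.5 and 10.3 CPM against 20.1, 85.0 and 18.4 CPM. Sprr2g had 5.15, 4.09 and 5.16 CPM against 14.3, 26.9 and 13.5 CPM. In all 3 the positive libraries were above every negative one. Sprr2g gave the smallest unpaired adjusted p among the 26 genes, at a log2 difference of 1.92 ± 0.30, and 0.00948 in the paired fit. Sprr2e, at 0.996, 1.80 and 1.08 CPM, rose in the paired fit to 3.76, 17.6 and 3.62 CPM, a log2 difference of 2.44 ± 0.31. Sprr2j-ps went from 1.68, 2.62 and 1.93 CPM to 5.34, 19.8 and 4.33 CPM. Sprr2k went from 2.87, 3.70 and 2.92 CPM to 4.36, 17.8 and 4.83 CPM. Both were apart in the 2 groups and passed the paired fit, as did Sprr2b, which rested on few reads (0.171, 0.196 and 0.0567 CPM against 0.443, 0.787 and 0.391 CPM). Sprr2b passed the filter on low counts only through the positive libraries, so it had to differ in order to be tested.

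The remaining Sprr2 genes did not pass. Sprr2f was at 0.512, 0.556 and 0.596 CPM against 0.854, 7.02 and 1.07 CPM, with groups apart and a paired adjusted p of 0.0623. Sprr2i was at 1.39, 2.03 and 1.36 CPM against 1.55, 9.51 and 1.95 CPM, with overlapping groups. Sprr2a3 was the exception of the family. It had 20.4, 45.8 and 22.1 CPM in the negative and 17.1, 45.1 and 18.3 CPM in the positive libraries, and thus overlapped fully, with replicate 2 high in both groups. Its log2 difference was -0.13 ± 0.48 unpaired (adjusted p 0.919) and -0.18 ± 0.07 paired (adjusted p 0.148). Its sign turned with the library left out, from -0.74 to 0.33, and without both libraries of number 2 it fell (-0.27, adjusted p 0.00297 unpaired). Of its 50-base stretches 61.1% occur in another gene, and of those of the neighbouring copies Sprr2a1 and Sprr2a2 96.3% and 96.5%, so reads of the 3 copies could be divided or dropped by the counting. Sprr2a1 and Sprr2a2 had at most 5 counts in any tumor library.

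**Figure D2:**
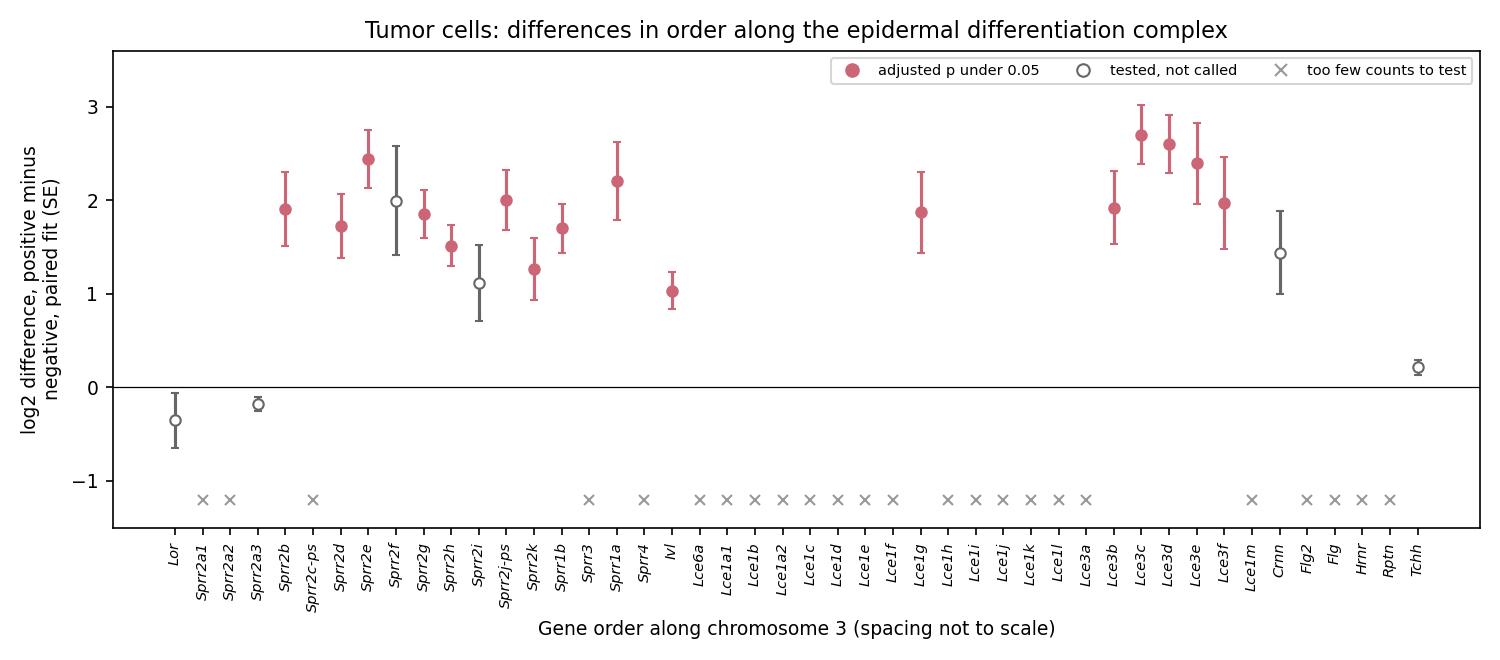
Paired log2 difference (positive minus negative, bars are standard errors) in tumor cells for the 46 genes on chromosome 3, in the order of their position with spacing not to scale. Filled points had an adjusted p under 0.05, open points were tested and not called, and crosses had too few counts to test; called genes stand in the Sprr, Ivl and Lce3 stretches, Lce1g is the only filled point among the Lce1 genes, and Lor, Tchh and Sprr2a3 lie near 0 or below it.

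The Lce3 genes, which in human skin are tied to barrier repair after injury, had the largest median difference of the families here (2.48). That median is the value of Lce3e, which, like Lce3b and Lce3f, passed the filter on low counts only through the positive libraries. Such genes had to differ in order to be tested, so the ranking does not stand for the family. Lce3c stood at 4.18, 5.20 and 4.17 CPM in the negative and at 19.6, 67.6 and 17.1 CPM in the positive libraries. Its mean rose 7.70-fold, the log2 difference was 2.95 ± 0.58 unpaired (adjusted p 0.0769) and 2.70 ± 0.31 paired (adjusted p 0.00678). Lce3d had 0.882, 1.44 and 1.42 CPM against 4.55, 16.2 and 4.90 CPM, a log2 difference of 2.60 ± 0.31 in the paired fit. In Lce3c and Lce3d the groups were apart, where 14.6% of all genes were apart and higher. Lce3b, Lce3e and Lce3f were apart and rose in the paired fit too, but had to differ in order to be tested. They were rare transcripts. Lce3b had 0.171, 0.131 and 0.113 CPM against 0.411, 0.689 and 0.533 CPM. Lce3e had 0.171, 0.164 and 0.0567 CPM against 0.443, 1.34 and 0.426 CPM. Lce3f had 0.285, 0.229 and 0.454 CPM against 0.759, 2.66 and 0.853 CPM. Between 12.1% (Lce3b) and 49.3% (Lce3d) of the 50-base stretches of these 5 genes occur in another gene, mostly each other, so reads could be counted to the wrong copy among them. Lce3a, the sixth, had at most 11 counts and was not tested.

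All but 1 of the Lce1 and Lce6 genes sit between Ivl and Lce3a, and there was almost no RNA from them. Over the 6 tumor libraries 4 of the 15 had no count at all, 9 had at most 3 in any library, and Lce1m had at most 4. Lce1g was the single gene tested, at 0.0569, 0.360 and 0.113 CPM against 0.601, 1.02 and 0.284 CPM. These groups overlapped, the counts behind them were 2, 11 and 4 against 19, 31 and 8, and its paired adjusted p was 0.0348. It was not called in the paired fit without number 1 and had too few counts to test without number 2.

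The 2 precursors of the envelope went separate ways. Ivl had 46.2, 39.8 and 48.4 CPM in the negative and 79.2, 130 and 74.8 CPM in the positive libraries. The groups were apart, the mean rose 2.11-fold, and the log2 difference was 1.08 ± 0.22 unpaired (adjusted p 0.0828) and 1.04 ± 0.20 paired (adjusted p 0.0205). Lor, the main envelope protein of normal epidermis, was at 1.37, 0.720 and 0.964 CPM against 0.822, 0.951 and 0.604 CPM. Its groups overlapped, and its log2 difference of -0.36 ± 0.32 had an adjusted p of 0.608. Per kilobase of exon the mean level of Ivl in the negative libraries was 23.3 CPM and that of Lor 0.572 CPM.

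The S100-fused type genes were at or near the limit of counting, apart from Tchh, which encodes trichohyalin of the inner root sheath. Tchh had 11.5, 24.6 and 10.8 CPM in the negative and 12.4, 28.7 and 13.3 CPM in the positive libraries. Replicate 2 was high in both groups, the groups overlapped, and the log2 difference was 0.22 ± 0.45 unpaired and 0.21 ± 0.07 paired (adjusted p 0.101). Crnn (cornulin) was between 0.199 and 0.425 CPM in the negative libraries and at 0.316, 2.10 and 0.426 CPM in the positive ones, with a paired adjusted p of 0.0727. Flg, the filaggrin gene, had 0, 1 and 0 counts in the negative and 2, 16 and 2 counts in the positive libraries. That is 0, 0.0327 and 0 CPM against 0.0632, 0.525 and 0.0711 CPM, and 5 of the 6 values lie under the limit that 3 counts set. Rptn had 3 to 12 counts in every tumor library, Hrnr at most 11 and Flg2 at most 4, and none of these was tested.

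The 4 genes on chromosome 7 include the most abundant members of the set. Dmkn (dermokine, a secreted protein of the spinous and granular layers) had 602, 727 and 607 CPM in the negative and 836, 1737 and 808 CPM in the positive libraries. Krtdap (keratinocyte differentiation-associated protein) had 512, 693 and 557 CPM against 569, 1241 and 553 CPM. Dmkn was apart and rose in the paired fit (0.71 ± 0.16, adjusted p 0.0323), while Krtdap overlapped and was not called (0.33 ± 0.16, adjusted p 0.195). Sbsn (suprabasin), their neighbour, had 59.98, 63.6 and 64.3 CPM against 129, 316 and 122 CPM. Cnfn (cornifelin, an envelope component) had 14.9, 10.2 and 15.7 CPM against 42.5, 140 and 39.8 CPM. Both were apart, with log2 differences of 1.44 ± 0.26 (adjusted p 0.0173) and 2.18 ± 0.46 (adjusted p 0.0264) in the paired fit. Sbsn shares 6.96% of its 50-base stretches with Tmem147os, which overlaps it on the same strand.

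Per kilobase the order of levels changed between the groups. In the negative libraries the mean was 866 CPM for Krtdap, 294 for Dmkn, 281 for Sprr1b, 96.2 for Sprr1a, 44.3 for Sprr2h and 23.3 for Ivl. Dmkn (274 to 331) and Sprr1b (259 to 324) overlapped there, whereas Krtdap (755 to 1021) lay above both and Sprr1a (94.5 to 98.7) below both. In the positive libraries the means were 1160 for Krtdap, 1067 for Sprr1b, 574 for Sprr1a, 514 for Dmkn, 145 for Sprr2h, 103 for Cnfn and 61.3 for Lce3c. With positive replicate 2 in the range these 4 overlapped, apart from Krtdap (815 to 1827) and Dmkn (369 to 793). All 50 genes together summed to 1614, 2030 and 1682 CPM in the negative and 2586, 6683 and 2488 CPM in the positive libraries. Krtdap and Dmkn made up 69.0, 69.9 and 69.2% of that sum in the negative libraries and 54.3, 44.6 and 54.7% in the positive ones. The share of Sprr1a and Sprr1b was 18.1, 17.0 and 17.5% against 29.3, 38.4 and 29.1%. Per 100 CPM of the basal keratin Krt14 the sum was 4.89, 5.36 and 4.90 in the negative and 7.91, 16.2 and 7.71 CPM in the positive libraries. Krt14 itself was at 35079 ± 2543 and 35370 ± 5019 CPM (log2 difference 0.01 ± 0.12). Of the 8 basal keratinocyte markers, 3 were apart and lower in the positive libraries (Krt15, Krt5 and Trp63), against 13.6% of all genes, and 5 overlapped. In the paired fit 1 of the 8 fell, against 7.34% of all genes. That gene was Krt15, named after its values were seen, a keratin of basal and bulge cells, at 52.6, 76.2 and 47.7 CPM in the negative and 21.9, 37.6 and 19.8 CPM in the positive libraries. Its paired log2 difference was -1.18 ± 0.07, with an adjusted p of 0.00201, and its unpaired one -1.15 ± 0.29, with an adjusted p of 0.112.

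Positive replicate 2 carried the highest value of 24 of the 26 tested genes, and the difference was largest within number 2 for 23 of them, against 39.3% of all genes. The median log2 ratio of positive over negative was 1.28 within number 1, 2.35 within number 2 and 1.07 within number 3, and the medians over all genes were 0.00, 0.00 and 0.01. In 23 of the 26 the positive library was higher in every number, against 28.7% of all genes. Without both libraries of number 2 the unpaired test called 18 genes higher and 1 lower (Sprr2a3), against 20.4% and 19.2% of all genes in that fit. Without positive replicate 2 alone it called 10 higher and 0 lower, against 2.85% and 1.67% of all genes. Replicates 1 and 3 were close to each other: over all tested genes their counts differed by a chi-square of 1.62 per degree of freedom in the positive and 3.11 in the negative group, against 47.0 to 99.5 for pairs with replicate 2. A fit on numbers 1 and 3 therefore rests on a small spread, and the labels do not say whether these libraries came from separate animals.

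**Figure D3:**
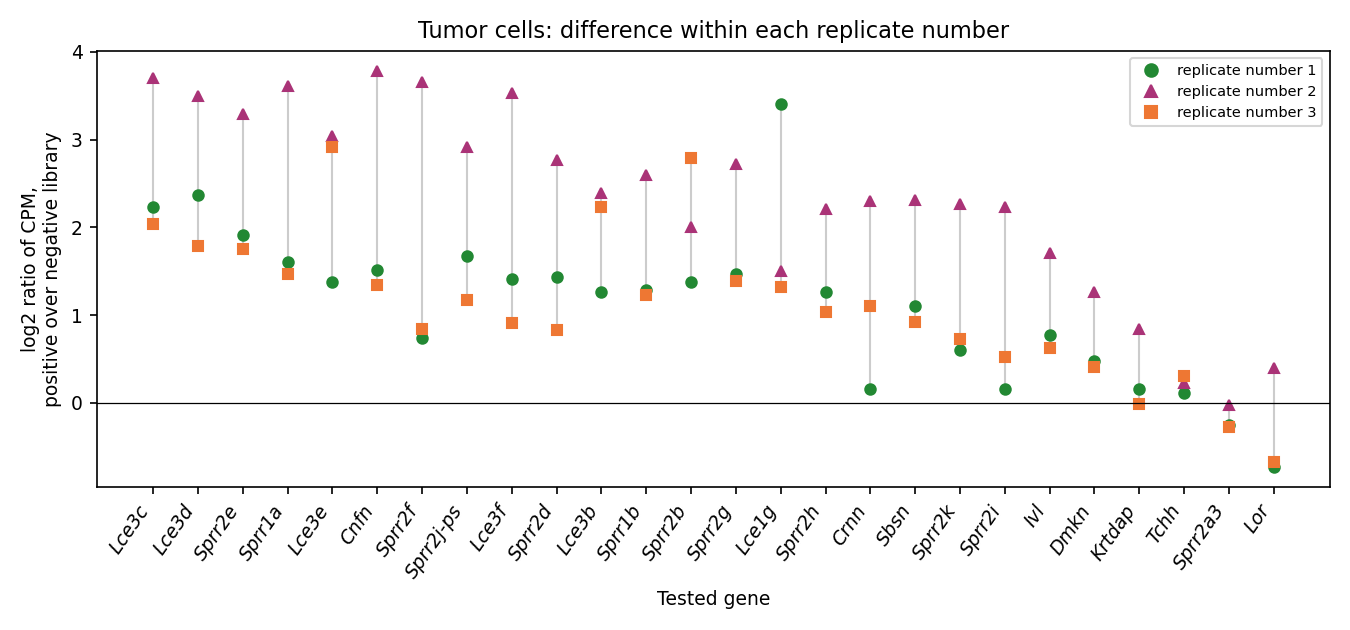
Log2 ratio of CPM, positive over negative library of the same replicate number, for the 26 tested genes in tumor cells; each point is 1 replicate number and grey lines join the 3 values of a gene. Number 2 (triangles) is the highest point for 23 genes, with a median of 2.35 against 1.28 and 1.07, and the ratios of Krtdap, Tchh, Sprr2a3 and Lor lie near or below 0 in numbers 1 and 3.

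Markers of other cells also differed between these libraries. The sum of 10 macrophage markers was 29.9, 84.4 and 28.4 CPM in the negative and 37.3, 118 and 34.4 CPM in the positive libraries, so replicate 2 was high in both groups. The sum was also higher in the positive library of every number. All 10 genes overlapped between the groups, where 14.6% of all genes were apart and higher and 13.6% apart and lower. In the paired fit 2 of them, Csf1r and Lyz2, rose (adjusted p 0.0325 and 0.0191), against 10.7% of all genes. The neutrophil list summed to 43.0, 75.4 and 49.6 CPM against 86.0, 370 and 85.6 CPM, and nearly all of that was S100a8 and S100a9, which keratinocytes also make. Of its other genes, Ly6g was at most 0.190 CPM and Retnlg at most 0.539 CPM in the tumor libraries. Csf3r was at 2.25, 0.916 and 2.44 CPM against 1.87, 1.08 and 2.13 CPM, lowest in replicate 2 of both groups. Retnlg and Csf3r were called in neither fit, and Ly6g was not tested. Mast cell markers summed to 5.90 CPM in positive replicate 2, 0.687 CPM in negative replicate 2 and at most 0.253 CPM in the others. Krt79, of the sebaceous and hair follicle list and named after its values were seen, was at 11.4 CPM in positive replicate 2 and at most 1.21 CPM in the others. That list as a whole, mostly Scd1, was lower in the positive library of every number. Its sum was 26.9, 62.3 and 26.5 CPM in the negative and 25.0, 60.5 and 23.7 CPM in the positive libraries. Krt71 of the list was apart and higher, and Mc5r had no count. Sums for T cells were at most 0.491 CPM, and 2 of the 5 T cell genes had no count. The part of other cells in the result was not tested.

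Genes that work with the envelope were taken from 4 lists. Of all genes, 10.7% rose and 7.34% fell in the paired fit, and 0.573% and 0.235% in the unpaired fit. For envelope assembly and filaggrin processing (transglutaminases, desquamation proteases, plakins) 10 of 16 tested genes rose when paired and 0 unpaired, at a median log2 difference of 0.86. Tgm1, the membrane-bound transglutaminase that builds the envelope, had 20.3, 27.0 and 19.5 CPM against 46.1, 141 and 48.1 CPM. Cdsn (corneodesmosin, which holds corneocytes together) had 1.96, 2.06 and 1.53 CPM against 5.60, 23.3 and 5.15 CPM. Evpl (envoplakin) had 136, 122 and 131 CPM against 186, 269 and 182 CPM, and Klk7, a desquamation protease, 0.967, 0.884 and 1.53 CPM against 3.10, 7.48 and 2.95 CPM. All 4 were apart and passed the paired fit, with adjusted p-values of 0.00958 to 0.0236. They were named for the smallest unpaired p of the list, so this adds no further support. In the whole list 11 of the 16 were apart and higher and 0 apart and lower, against 14.6% and 13.6% of all genes.

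Among other genes of the complex on chromosome 3, 7 of 17 tested rose when paired and 0 unpaired, at a median of 0.35. The 4 with the smallest p were Crct1, S100a7a, Pglyrp4 and S100a9. Crct1, a small cysteine-rich gene next to the Lce block, was at 1.74, 1.31 and 1.53 CPM against 4.21, 12.6 and 3.94 CPM. S100a6, an abundant calcium-binding protein gene of the same region, was not called (2831 ± 167 and 2945 ± 392 CPM), and it was picked after its values were seen. The tested Sprr and Lce3 genes of the same complex had medians of 1.93 and 2.48. Both sets held genes that passed the filter only through the positive libraries, such as Sprr2b and Lce3e.

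Of 17 regulators of terminal differentiation, 1 passed the unpaired test, and 10 passed in the paired fit, all upward, at a median of 0.56. The gene was Prdm1 (Blimp1, a repressor needed for the last steps of cornification), at 5.24, 3.63 and 5.59 CPM against 14.9, 16.6 and 12.2 CPM. Its log2 difference was 1.59 ± 0.20, with an adjusted p of 0.0412 by edgeR's unpaired test. With 1 library left out, 0 of the 17 were called in 5 of the 6 fits, where at most 0.0578% of all genes were called higher. Without positive replicate 2 it was 6, against 2.85% of all genes. Klf4, a barrier transcription factor, had 251, 232 and 237 CPM against 360, 473 and 354 CPM. Zfp750, which acts below p63 in differentiation, had 121, 75.8 and 123 CPM against 256, 202 and 251 CPM, and Ovol1 65.7, 42.3 and 64.3 CPM against 110, 102 and 109 CPM. In Zfp750 and Ovol1 replicate 2 was the lowest library of both groups, whereas positive replicate 2 had the highest value of 24 of the 26 tested envelope genes. This compares levels and not the differences within a number. The basal factor Trp63 was at 463, 494 and 449 CPM against 444, 405 and 439 CPM. Its groups were apart, and it was called in neither fit (paired adjusted p 0.224).

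Of 10 tested suprabasal and stress keratins, 6 rose when paired and 0 unpaired, at a median of 0.71. Krt16, a keratin of wounded epidermis, had 1739, 2591 and 1683 CPM against 3511, 7614 and 3425 CPM. Krt16, Krt78, Krt13 and Krt6b were named for the smallest unpaired p of the list. They were the 4 of the 10 that were apart and higher, against 14.6% of all genes. Krt10, the main keratin of normal spinous cells, was named after its values were seen: it had 15.0, 60.3 and 16.4 CPM against 13.98, 48.8 and 12.3 CPM, with a paired adjusted p of 0.0563. In none of the 4 lists did a gene fall in either fit. But without number 2 the unpaired test called 2 genes of the complex and 1 keratin lower, against 19.2% of all genes.

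In the macrophage libraries the envelope genes were low and were highest in replicate 1. Within a replicate number most were lower in the FceRIa-positive library. Of the 50 genes 17 were tested, and their median log2 difference (positive minus negative) was -0.58, against 0.00 over all 14988 genes. All 17 had overlapping groups, where 11.6% of all genes were apart and higher and 9.78% apart and lower. With edgeR's quasi-likelihood test and no pairing 0 were called in either direction, and 0% of all genes were called higher or lower. At an unadjusted p under 0.05 the count was also 0, against 8.29% of all genes higher and 7.35% lower. DESeq2 called 0, against 4.41% of all genes higher and 4.05% lower. In the paired fit 8 of the 17 fell (Dmkn, Krtdap, Sbsn, Sprr1a, Sprr1b, Sprr2d, Lor and Rptn) and 0 rose, against 10.2% and 10.8% of all genes. In 15 of the 17 the positive library was lower in every number, against 28.2% of all genes.

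**Figure D4:**
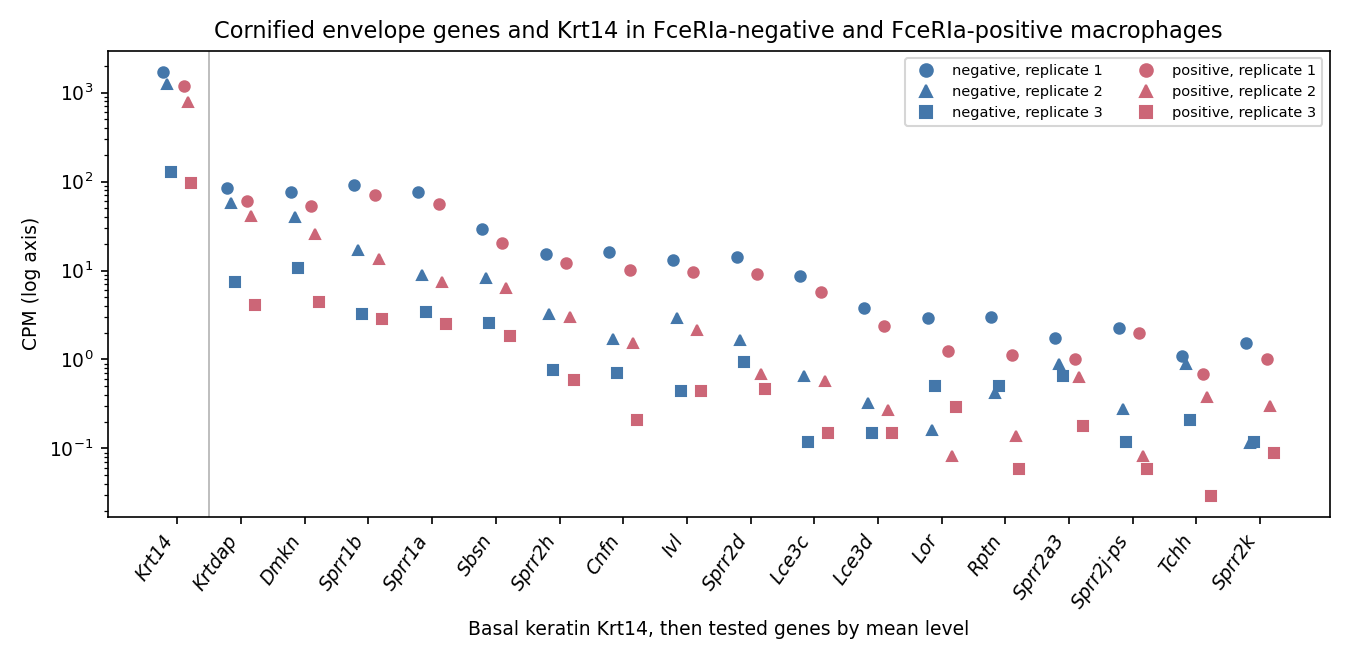
CPM on a log axis in each of the 6 macrophage libraries for Krt14 (left of the line) and the 17 tested envelope genes, ordered by mean level. Blue is FceRIa-negative, red FceRIa-positive and the shape the replicate number; a replicate 1 library is the highest for all 17 genes, and Krt14 runs from 97.2 to 1706 CPM.

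For the genes described next, replicates 1 and 3 of a group differed by more than the 2 libraries of a number did. Krtdap had 83.9, 58.0 and 7.46 CPM in the negative and 59.8, 40.9 and 4.13 CPM in the positive libraries. Dmkn had 75.6, 39.9 and 10.7 CPM against 52.8, 25.9 and 4.39 CPM. Sprr1b had 91.0, 16.9 and 3.23 CPM against 71.0, 13.4 and 2.89 CPM. In each the positive library was the lower of its number, and replicate 1 was far above replicate 3. Sprr1a had 77.2, 8.93 and 3.40 CPM against 55.5, 7.51 and 2.53 CPM. Sbsn had 29.4, 8.26 and 2.57 CPM against 20.5, 6.30 and 1.83 CPM. Sprr2h, not called, had 15.5, 3.26 and 0.769 CPM against 12.2, 2.97 and 0.589 CPM. The same order of numbers held in these 3. Paired log2 differences of the 8 called genes lay between -1.68 (Rptn) and -0.31 (Sprr1b), with adjusted p-values of 0.00329 (Krtdap) to 0.0444 (Lor). Without number 1 the paired fit called 2 of 14 tested genes lower, Dmkn and Krtdap, against 4.54% of all genes.

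The keratins of basal keratinocytes moved the same way in these libraries. Krt14 was at 1706, 1237 and 129 CPM in the negative and 1189, 789 and 97.2 CPM in the positive libraries. In the paired fit 6 of 8 basal keratinocyte markers fell, against 10.2% of all genes, and in the unpaired one 0. The others, the integrin genes Itgb1 and Itga6, went the other way and were not called. Itgb1 had 553, 586 and 526 CPM against 684, 656 and 657 CPM, and Itga6 85.8, 87.2 and 49.8 CPM against 98.8, 92.0 and 79.4 CPM. Relative to Krt14 the envelope genes summed to 26.8, 11.9 and 26.2 CPM per 100 CPM in the negative and to 27.4, 13.3 and 19.8 in the positive libraries. So numbers 1 and 2 had at least as much envelope RNA per Krt14 in FceRIa-positive as in FceRIa-negative libraries, and number 3 had less. Those ratios were above the 4.89 to 16.2 of the tumor libraries in all but replicate 2 of the macrophages. Of the lists above, 0 genes were called unpaired in the macrophages, and in the paired fit 4 of 14 assembly, 7 of 12 complex, 4 of 17 regulator and 3 of 11 keratin genes fell, against 10.2% of all genes. In that fit 2 of the 17 regulators rose, against 10.8%. Tumor and macrophage tables were normalized separately, so the levels are set side by side with no test.

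The mix of envelope genes in the macrophage libraries differed from that in the sorted basal tumor cells. Lor had 117, 7 and 17 counts in the negative and 45, 3 and 10 counts in the positive macrophage libraries (2.94, 0.163 and 0.503 CPM against 1.24, 0.0819 and 0.295 CPM). Per 1000 CPM of Krt14 that was 1.72, 0.132 and 3.90 against 1.05, 0.104 and 3.03, where the 6 tumor libraries lay between 0.0187 and 0.0414. Rptn (repetin) had 2.97, 0.419 and 0.503 CPM against 1.13, 0.136 and 0.0589 CPM. Per 1000 CPM of Krt14 it stood at 0.173 to 3.90 in the macrophage and 0.00259 to 0.0103 in the tumor libraries. Krtdap, an abundant gene, was also above the tumor range in every macrophage library, at 42.4 to 57.7 against 15.5 to 30.1 per 1000 CPM of Krt14. Lor and Rptn belong to late layers of the epidermis. Lor and Krtdap were not called in the tumor cells, and Rptn was not tested there. Sprr2d had 14.3, 1.67 and 0.947 CPM against 9.14, 0.682 and 0.471 CPM, or 0.865 to 8.38 per 1000 CPM of Krt14 against 0.225 to 2.07 in the tumor libraries. Sprr1a and Sprr1b were 36.8 and 38.8% of the envelope sum in replicate 1 of the negative and positive macrophages and 17.6 and 19.9% in replicate 2. In replicate 3 their share was 19.6% in the negative and 28.2% in the positive library. The cells that this RNA came from were not identified.

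**Figure D5:**
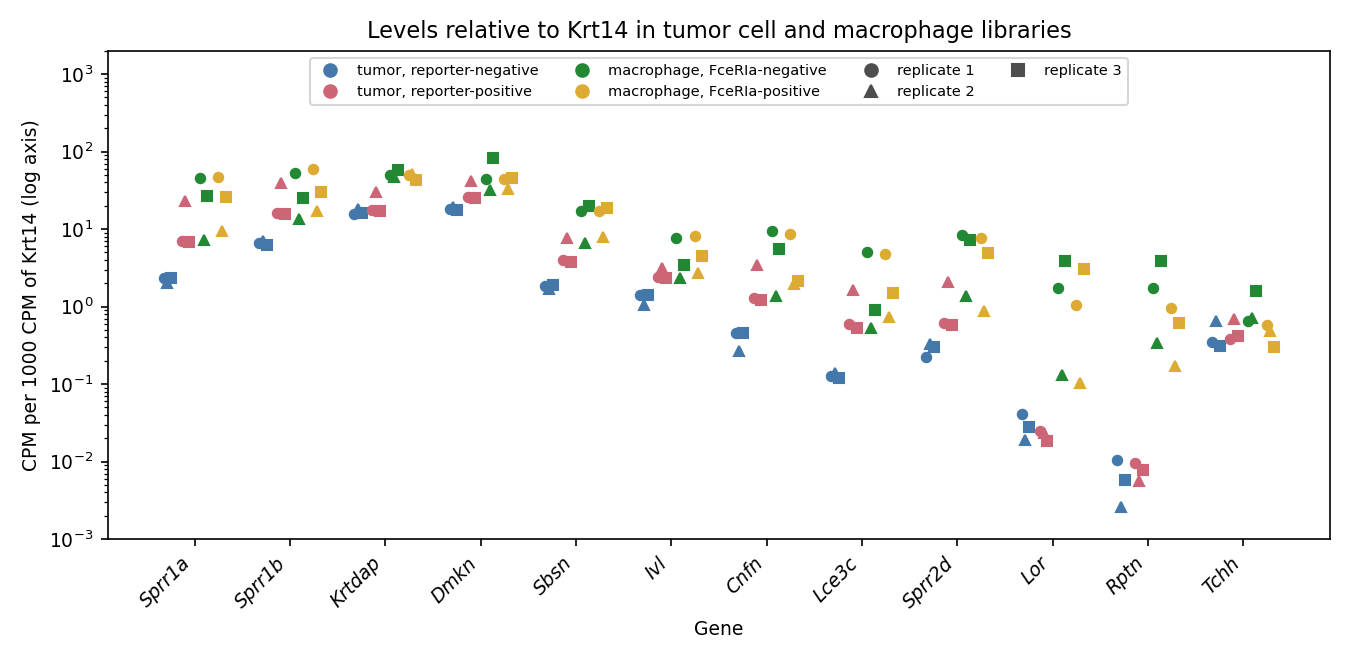
CPM of 12 envelope genes per 1000 CPM of Krt14, on a log axis, in the 6 tumor (blue, red) and 6 macrophage (green, yellow) libraries, with the shape for the replicate number. Lor lies between 0.0187 and 0.0414 in the tumor libraries and between 0.104 and 3.90 in the macrophage libraries, and for Krtdap, Lor and Rptn all macrophage points are above all tumor points.

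Of the 33 genes not tested in the macrophages, 3 had no count (Sprr2a2, Sprr2c-ps and Lce1k), 14 had at most 3 counts in any library, and the highest was Sprr2i with 177 counts in negative replicate 1. The Lce1 and Lce6 genes had at most 5 counts in any macrophage library. Of the 24 not tested in the tumor cells, 5 had no count (Sprr2c-ps, Lce1h, Lce1i, Lce1j and Lce1l), 11 had at most 3 and 8 had 4 to 16. For the genes with at most 3 counts no difference was detectable at this depth. Sprr2i (177, 7 and 8 counts against 118, 4 and 5) and Sprr2g (114, 6 and 7 against 56, 9 and 1) were also not tested in the macrophages, and most of their counts were in replicate 1.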

How the data were processed

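The values deposited by the authors are raw counts per gene. The submitters' processing notes name FastQC, STAR and mm10 (GRCm38), with no versions. Which counter, strand setting and annotation were used is not given in the sources used here. Counts of overlapping or near-identical genes are uncertain in that respect, and 4 columns that belong to no sample were left out. Of 53801 gene IDs 53706 matched GENCODE M21, which gave coordinates and exon lengths.

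Each set of 6 libraries was fitted over all genes with edgeR 4.0.16 in R 4.3.3 (TMM, filterByExpr, quasi-likelihood test, Benjamini-Hochberg threshold 0.05), positive minus negative. The test recovered known changes in simulated counts, where only genes above a set level were changed. The unpaired fits met a wider spread than was simulated (coefficient of variation 0.188 in the tumor and 0.302 in the macrophage set). The simulation therefore cannot give the power of the unpaired test for these genes. The labels do not say that replicates came from separate animals, so the p-values rest on sample-to-sample spread that may be technical. Whether numbers pair the libraries was checked by correlating same-numbered libraries after subtracting group means. In the tumor set r was 0.449 (number 1), 0.703 (number 2) and 0.488 (number 3), and in the macrophage set 0.688, 0.787 and 0.734. Each exceeded 0.1, which was the rule for pairing, and paired results stand beside unpaired ones. Tumor negative replicate 1 correlated at 0.488 with positive replicate 3, so numbers 1 and 3 are not told apart.

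The genes and lists were chosen with earlier results of these data known. Values per library are given for tested tumor genes with a mean of at least 1 CPM, genes called in any of the fits, and the 6 highest in macrophages. From each list up to 4 genes with the smallest unpaired p and at least 1 CPM were named. Alternatives were DESeq2 1.42.0, other scalings, other filters, pairing by number, the unadjusted p and omitted libraries, and the unpaired fits without 1 replicate number were added after seeing the data. Limits from counts cover counting error only.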

Additional observations from a re-analysis of the deposited data

How the results depend on the processing

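Each envelope gene was refitted under other scaling factors, filters, tests and sets of libraries. In tumor cells the number of genes called higher, 0 without pairing, was 5 of 45 tested with no filter on low counts, against 0.699% of all genes. It was 12 with DESeq2 (5.2% of all genes) and 20 at an unadjusted p (11.1%). Under the other scaling factors and the stricter filter it was 0, where 0.434 to 0.726% of all genes were called higher. With the replicate number as a block (pairing) it was 19 with edgeR and 15 with DESeq2, against 10.7% and 7.67% of all genes. With 1 number left out of the block it was 21 of 26 tested (number 1), 18 of 26 (number 2) and 18 of 27 (number 3). In those fits 7.67%, 21.5% and 5.81% of all genes were called higher. With 1 library left out it was 0 to 10, and the 10 came from leaving out positive replicate 2, against 2.85% of all genes. In the other fits of this kind at most 0.0578% of all genes were called higher. Unpaired without both libraries of number 2 it was 18, and 1 gene (Sprr2a3) was called lower, as in the paired fit without number 2. In that unpaired fit 20.4% of all genes were called higher and 19.2% lower. In macrophages the number called lower, 0 without pairing, was 8 with the block and 6 with the block and DESeq2, against 10.2% and 9.09% of all genes. With 1 number left out of the block it was 2 of 14 tested (number 1), 7 of 27 (number 2) and 8 of 27 (number 3). In those fits 4.54%, 9.17% and 10.4% of all genes were called lower. The causes were not tested. With 1 library left out the adjusted p of Sprr1a ran up to 0.339, of Sprr1b to 0.357 and of Lce3c and Ivl to 0.311.

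No tested gene changed sign under another scaling. With 1 library left out, 3 tumor genes changed sign: Sprr2a3 (-0.74 to 0.33), Tchh (-0.28 to 0.70) and Krtdap (-0.07 to 0.62). In macrophages 14 of 17 did: Lor (-2.65 to 0.71), Sprr2d (-3.27 to 1.39), Sprr2h (-1.86 to 1.38), Sprr2j-ps (-3.57 to 1.80), Sprr2k (-1.57 to 1.98), Sprr1b (-2.17 to 1.53), Sprr1a (-2.56 to 1.83), Ivl (-2.08 to 1.26), Lce3c (-3.11 to 2.44), Lce3d (-2.73 to 1.95), Cnfn (-2.81 to 1.71), Sbsn (-1.71 to 0.82), Dmkn (-1.47 to 0.13) and Krtdap (-1.14 to 0.10). Sprr2k was also 0.07 with the block and DESeq2. Depth limits Flg, Flg2, Hrnr and the Lce1 and Lce6 genes other than Lce1g, which had too few reads to test in either set.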
